A study of Mus musculus with 28 samples.

Results

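The 10 genes described here carry the interleukin 22 (IL-22) signal from its ligand to epithelial targets, and they were found by gene symbol among the 54354 genes of the deposited table. They are Il22, the receptor chains Il22ra1 and Il10rb, the kinases Jak1 and Tyk2, the transcription factor Stat3, its inhibitor Socs3, and the epithelial targets or responders Fut2, Lcn2 and Tifa. All 10 symbols were present, each once. Sequencing of poly(A)-selected RNA had been made from the small intestine of mice with the genotype Lgr5-GFP, in which green fluorescent protein reports Lgr5, a receptor gene of crypt stem cells. The 28 libraries formed 4 groups of 7: Lgr5-high cells on a cystine diet, Lgr5-high cells on the control diet, Lgr5-low cells on the cystine diet and Lgr5-low cells on the control diet. Cystine is made of a pair of cysteine residues joined by a disulfide bond, and the title of the study connects dietary cysteine with stemness through IL-22 made by CD8 T cells. All groups shared the genotype. The labels give no age, strain, sex, dose or duration, and do not tell whether each library came from its own animal, so the spread behind a p-value may be technical. Their extraction protocol names organoids, whereas the design text names populations isolated from the intestine, and which of them holds is not given in the sources used here.

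IL-22 is a cytokine of lymphocytes that acts on epithelial cells. It binds a receptor made of IL22RA1, which sets the cell type specificity, and IL10RB, a chain shared with the receptors of IL-10 and of type III interferons. The kinases JAK1 and TYK2 sit on these chains and phosphorylate STAT3, which enters the nucleus as a dimer and drives genes of antimicrobial defence, fucosylation and repair, together with SOCS3, which feeds back on the receptor. In the intestine the pathway is known for its part in barrier defence and in crypt regeneration.

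STAT dimers bind palindromes with TTC and GAA ends, and the promoters of all members with an entry were searched for such letters. The windows ran from 250 bases before to 50 bases after the start of a gene (RefSeq, GRCm38.p6). Entries were found for 8 members, with 9 promoters. TTCNNNGAA occurred in 1 member, Socs3, and TTCNNNNGAA in 1 member, Lcn2. The matches are printed with flanking bases in lower case, as the windows chr11:117969502-117969530 for Socs3 and chr2:32387876-32387905 for Lcn2, both on the minus strand. Both patterns read the same on both strands and do not overlap each other. The matches began 154 bases before the RefSeq start of Socs3 and 156 bases before that of Lcn2. The gene spans given below come from GENCODE, reach further upstream, and contain both windows. Capitals mark the matched letters, written 5′ to 3′ on the strand of the gene.
Socs3: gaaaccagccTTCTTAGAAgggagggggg
Lcn2: tgccaagtatTTCAACAGAAtgtactggca
Of the 32851 promoters in the reference, 8.3% held TTCNNNGAA and 6.95% held TTCNNNNGAA. These are matches of letters, not sites shown to be bound, and neither gene had enough reads for a test of its level.

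The pathway was measured in part: 5 members passed the filter on low counts, Il10rb, Jak1, Tyk2, Stat3 and Tifa, and 5 were too low to test, Il22, Il22ra1, Socs3, Fut2 and Lcn2. Library totals lay between 2.75 and 21.5 M (mega) counts. They averaged 6.84 ± 4.40 M in Lgr5-high cystine, 14.8 ± 5.80 in Lgr5-high control, 13.6 ± 6.24 in Lgr5-low cystine and 8.53 ± 5.3 in Lgr5-low control libraries (SD, n = 7 each). The sort was visible in Lgr5, at 25.8 ± 7.89 CPM (counts scaled by TMM library sizes) in Lgr5-high cystine, 35.0 ± 9.06 in Lgr5-high control, 6.76 ± 2.89 in Lgr5-low cystine and 4.19 ± 3.61 in Lgr5-low control libraries. A division of libraries by Xist, chosen to stand for the sex that the labels leave out, put 5, 4, 5 and 4 libraries of these groups in a female class. Values within each class are given with the results that depend on it.

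Il22, the ligand, lies on chromosome 10 (118204942 to 118210047, plus strand, GRCm38). It had 0 counts in each of the 28 libraries. A count of 0 allows up to 0.0695 CPM over the Lgr5-high cystine libraries, 0.0293 over the Lgr5-high control, 0.0294 over the Lgr5-low cystine and 0.0463 over the Lgr5-low control libraries, taking 3 counts as the limit. Over all libraries together the limit was 0.00960 CPM, and in single libraries it lay between 0.124 and 1.11 CPM. These limits cover counting error only. At this depth no reads of the ligand were detected in either sorted population on either diet.

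The lymphocyte list, 22 genes of T cells and other cells known to make IL-22, was read beside the ligand. Of these, 12 were tested, and 0 passed the threshold in any diet or population contrast. Their median log2 fold change of cystine over control was 0.78 in Lgr5-high and -0.50 in Lgr5-low cells, beside -0.02 and -0.00 over all tested genes. Highest in CPM were Ccl5, a chemokine of cytotoxic T cells, and Gzma, a granzyme, at 30.3 and 27.2 CPM on average over all libraries. Ccl5 differed between cystine and control by a log2 fold change of 0.52 ± 0.72 (SE) in Lgr5-high and -0.34 ± 0.72 in Lgr5-low cells. Gzma differed by 0.85 ± 0.63 and -0.50 ± 0.63 in the same comparisons. Cd8a, which encodes a chain of the CD8 coreceptor, had 282 counts in 13 libraries, while Il23r and Il17a were at 0 in all of them. The summed level of the list ranged from 40.9 to 365 CPM in Lgr5-high cystine, 29.5 to 151 in Lgr5-high control, 27.0 to 170 in Lgr5-low cystine and 31.3 to 167 in Lgr5-low control libraries, so that lymphocyte transcripts were present where Il22 was not detected. Other ligands of STAT3-coupled receptors were low as well. None of the 12 listed was tested, and Lif and Il10 had the highest averages, 0.631 and 0.272 CPM.

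The receptor chains differed widely in level. Il22ra1, the chain particular to the receptor of IL-22 and related cytokines, lies on chromosome 4 (135728172 to 135752140, plus strand). It had 27 counts in all, in 7 of 28 libraries. The summed counts were 2 in Lgr5-high cystine, 13 in Lgr5-high control, 2 in Lgr5-low cystine and 10 in Lgr5-low control libraries. Pooled over the libraries of a group, this gave 0.0463 CPM (95% exact Poisson interval 0.00561 to 0.167) in Lgr5-high cystine and 0.127 CPM (0.0676 to 0.217) in Lgr5-high control libraries. The Lgr5-low groups stood at 0.0196 CPM (0.00237 to 0.0707) on cystine and 0.154 CPM (0.0741 to 0.284) on control diet. The control values rest on few libraries, since replicate 6 gave 12 of the 13 counts in Lgr5-high control and replicate 3 gave 8 of the 10 in Lgr5-low control. Intervals of pooled counts cover counting error only, here and for the other low members, and libraries of a group differed by more than that, so they describe levels and test no difference. The median library was at 0 in all 4 groups, and the gene did not pass the filter on low counts.

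Il10rb, the shared chain, lies on chromosome 16 (91406164 to 91425834, plus strand) and was detected in every library. It ranged from 9.94 to 28 CPM with a median of 17.4 in Lgr5-high cystine libraries, and from 9.62 to 21.7 CPM with a median of 16.3 in Lgr5-high control libraries. In Lgr5-low cells it ranged from 11.8 to 32.3 CPM with a median of 19.1 on cystine, and from 13.9 to 38.0 CPM with a median of 27.7 on control diet. All 4 groups overlapped, though 0 of the 7 Lgr5-high control libraries lay above the Lgr5-low control median. The order of the means was Lgr5-low control, Lgr5-low cystine, Lgr5-high cystine, Lgr5-high control, with each neighbour within 1 SD of the next. On the control diet the log2 fold change of Lgr5-high over Lgr5-low cells was -0.79 ± 0.27 (SE, 95% interval -1.33 to -0.25), and it missed the threshold over all genes (edgeR quasi-likelihood, adjusted p = 0.134). On cystine it was -0.37 (-0.92 to 0.17, adjusted p = 0.572). The diet contrasts were 0.10 (-0.44 to 0.65) in Lgr5-high and -0.31 (-0.85 to 0.23) in Lgr5-low cells. Of the exons of Il10rb, 569 bases are shared with Gm21970 on the same strand, a gene model with 125 counts against 6265 for Il10rb over all libraries.

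Levels of different genes can be compared only per length, here as CPM per kilobase of exon. On that scale Il10rb averaged 4.60 in Lgr5-high cystine, 4.22 in Lgr5-high control, 5.92 in Lgr5-low cystine and 7.34 in Lgr5-low control libraries. Il22ra1 averaged 0.00870, 0.0373, 0.00615 and 0.0723 CPM per kilobase in those groups. The widely shared chain Il10rb was thus measured well, and Il22ra1, the chain particular to the receptor of IL-22 and related cytokines, barely at all. Among 13 other receptor chains and antagonists 6 were tested and 0 passed in any contrast, with medians of -0.36 for the diet in Lgr5-high and 0.44 in Lgr5-low cells. Highest in CPM, which is not scaled for length, were Egfr, the receptor of epidermal growth factor, at 10.6 CPM, and Il6st, the shared chain of IL-6 family receptors, at 2.12 CPM. Egfr differed between cystine and control by -0.39 ± 0.36 (log2, SE) in Lgr5-high and -0.42 ± 0.35 in Lgr5-low cells, and Il6st by 0.75 ± 0.79 and 0.93 ± 0.79.

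**Figure D1:**
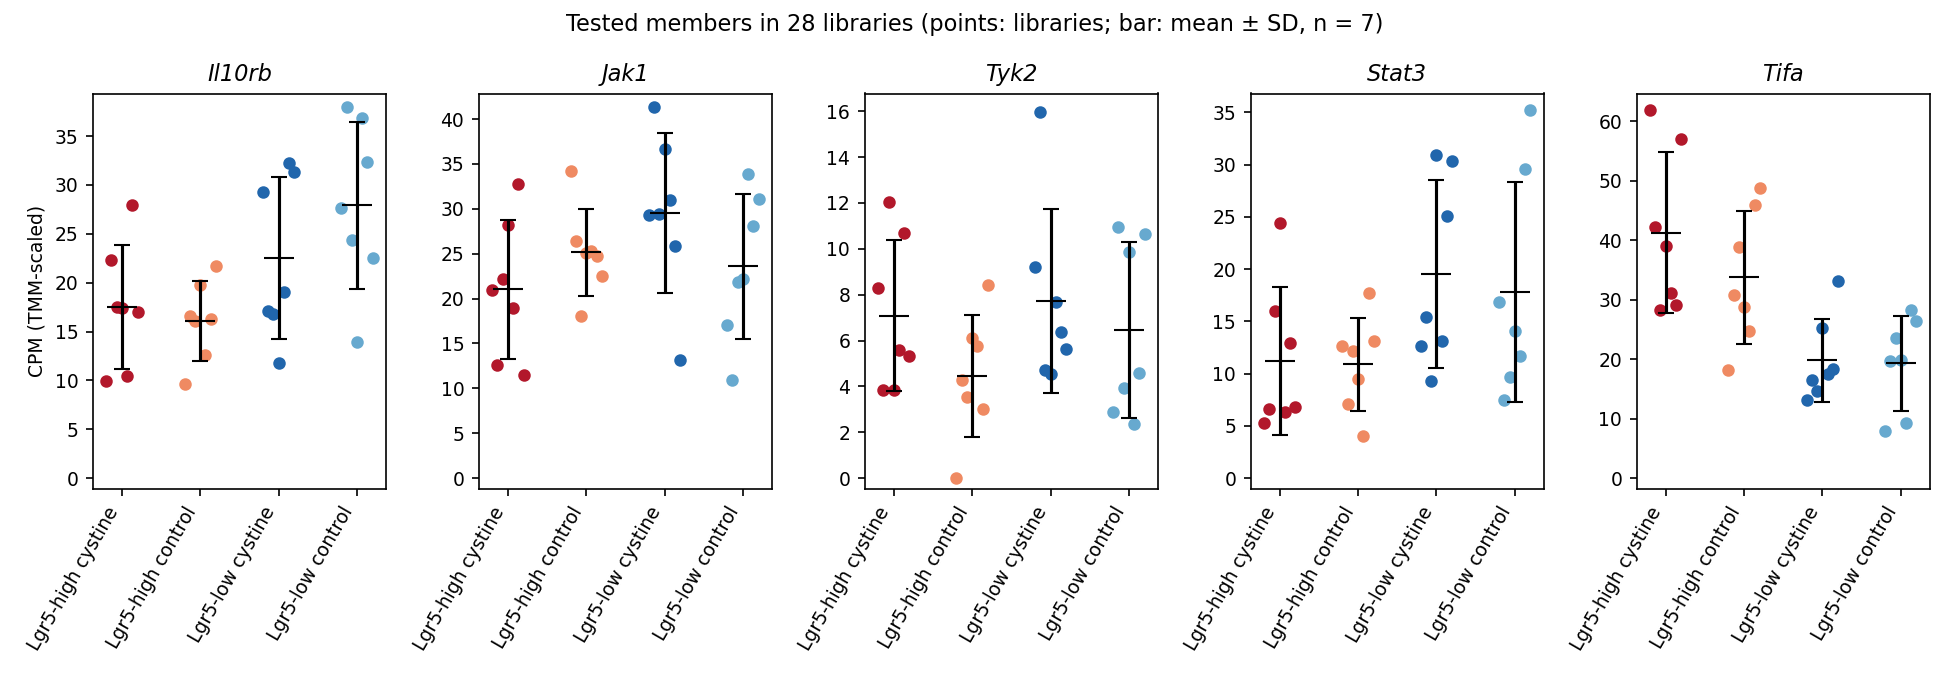
CPM of the 5 tested members in each library (points) with mean ± SD (bars, n = 7) for the 4 groups. Tifa averages 41.3 and 33.7 CPM in the Lgr5-high cystine and control groups, above 19.8 and 19.3 CPM in the Lgr5-low groups, and for the other 4 genes, too, no pair of compared groups is free of overlap.

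Jak1, a kinase bound to the receptor chain of IL-22 and of many other cytokines, lies on chromosome 4 (101152367 to 101265282, minus strand). It ranged from 11.5 to 32.8 CPM with a median of 21 in Lgr5-high cystine, and from 18.0 to 34.2 CPM with a median of 25.1 in Lgr5-high control libraries. In Lgr5-low cells the range was 13.2 to 41.3 CPM with a median of 29.4 on cystine, and 10.9 to 33.9 CPM with a median of 22.2 on control diet. The groups overlapped, and neighbours in the order of means (Lgr5-low cystine, Lgr5-high control, Lgr5-low control, Lgr5-high cystine) lay within 1 SD of each other. The cystine over control log2 fold change was -0.26 (95% interval -0.78 to 0.26) in Lgr5-high and 0.32 (-0.20 to 0.84) in Lgr5-low cells. The difference between these diet effects, -0.58, had an interval from -1.31 to 0.15. Between populations, the log2 fold change was -0.49 (-1.01 to 0.03, edgeR adjusted p = 0.365) on cystine and 0.09 (-0.43 to 0.61, adjusted p = 0.940) on control diet.

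Tyk2, the partner kinase, lies on chromosome 9 (21104068 to 21131243, minus strand) and was the lowest tested member at 6.43 CPM on average. It ranged from 3.84 to 12.0 CPM with a median of 5.58 in Lgr5-high cystine, and from 0 to 8.41 CPM with a median of 4.29 in Lgr5-high control libraries, 1 of which was at 0. In Lgr5-low cells it ranged from 4.55 to 16.0 CPM with a median of 6.35 on cystine, and from 2.36 to 10.9 CPM with a median of 4.59 on control diet. All groups overlapped, and the order of means was Lgr5-low cystine, Lgr5-high cystine, Lgr5-low control, Lgr5-high control, with neighbours within 1 SD. The cystine over control log2 fold change was 0.64 with an interval from -0.37 to 1.66 in Lgr5-high cells, and 0.26 with an interval from -0.75 to 1.26 in Lgr5-low cells. Both intervals include 0 and are the widest among the members. Between populations the values were -0.12 (-1.13 to 0.89) on cystine and -0.51 (-1.52 to 0.50) on control diet.

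Stat3, the transcription factor on which the pathway converges, lies on chromosome 11 (100885098 to 100939540, minus strand). It ranged from 5.24 to 24.4 CPM with a median of 6.79 in Lgr5-high cystine, and from 4.03 to 17.7 CPM with a median of 12.2 in Lgr5-high control libraries. In Lgr5-low cells it ranged from 9.29 to 30.9 CPM with a median of 15.4 on cystine, and from 7.50 to 35.3 CPM with a median of 14.1 on control diet. Medians were lower in the Lgr5-high groups, and all groups overlapped. The order of means was Lgr5-low cystine, Lgr5-low control, Lgr5-high cystine, Lgr5-high control, with neighbours within 1 SD. The diet contrasts were 0.04 (log2, 95% interval -0.73 to 0.81) in Lgr5-high and 0.14 (-0.62 to 0.90) in Lgr5-low cells. Lgr5-high over Lgr5-low gave -0.81 (-1.58 to -0.04, edgeR adjusted p = 0.293) on cystine and -0.71 (-1.47 to 0.06, adjusted p = 0.449) on control diet. The sign was the same on both diets and neither value passed over all genes. Since this is RNA, it says nothing of phosphorylated STAT3.

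Of 8 other kinases and STATs 6 were tested, and 0 passed in any contrast. Stat6, which serves IL-4 and IL-13, stood at 41.8 CPM on average. Stat6 differed between cystine and control by 0.19 ± 0.19 (log2, SE) in Lgr5-high and 0.10 ± 0.19 in Lgr5-low cells. The medians of this list were 0.09 and 0.04 in the same comparisons, beside -0.02 and -0.00 over all tested genes.

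Socs3, the feedback inhibitor whose promoter holds a TTCNNNGAA match, lies on chromosome 11 (117966079 to 117970047, minus strand). It had 111 counts in 19 libraries, at most 24 in one. Libraries with a count numbered 5 of 7 in Lgr5-high cystine, 4 in Lgr5-high control, 6 in Lgr5-low cystine and 4 in Lgr5-low control. The pooled level was 0.348 CPM (95% exact Poisson interval 0.195 to 0.573) in Lgr5-high cystine and 0.147 CPM (0.0820 to 0.242) in Lgr5-high control libraries. In Lgr5-low cells it was 0.470 CPM (0.347 to 0.623) on cystine and 0.510 CPM (0.351 to 0.716) on control diet. Every group held libraries at 0, and the highest library reached 2.21 CPM in Lgr5-high cystine, 0.375 in Lgr5-high control, 1.44 in Lgr5-low cystine and 1.48 in Lgr5-low control, so that the groups overlapped. Of 15 other negative regulators 14 were tested and 0 passed in any contrast, with medians of -0.02 for the diet in Lgr5-high and 0.10 in Lgr5-low cells. Highest in CPM were the phosphatase gene Ptpn2, at 59.5 CPM, and Pias1, which encodes a SUMO ligase, at 37.3 CPM. Ptpn2 differed between cystine and control by 0.01 ± 0.21 (log2, SE) in Lgr5-high and 0.18 ± 0.21 in Lgr5-low cells, and Pias1 by 0.07 ± 0.21 and -0.23 ± 0.21.

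**Figure D2:**
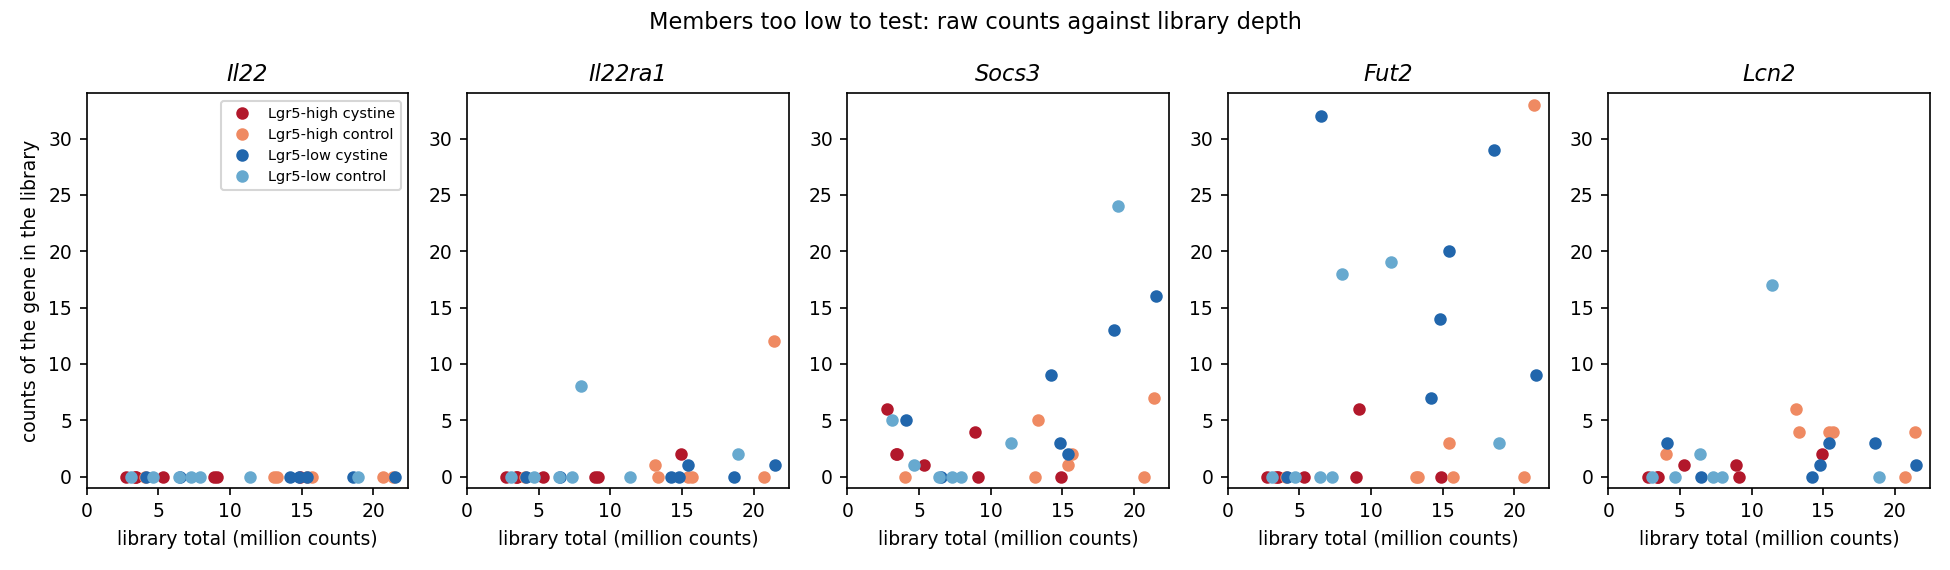
Counts of the 5 members too low to test (vertical) against the total of each library in M (horizontal), coloured by group. Il22 lies at 0 in all 28 libraries, and the highest counts of the others are 12 for Il22ra1, 24 for Socs3, 33 for Fut2 and 17 for Lcn2.

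Fut2, a fucosyltransferase that decorates the epithelial surface, lies on chromosome 7 (45648591 to 45666394, minus strand). It had 193 counts in 12 libraries, of which 1 was in Lgr5-high cystine, 2 in Lgr5-high control, 6 in Lgr5-low cystine and 3 in Lgr5-low control. The pooled level was 0.139 CPM (95% exact Poisson interval 0.0510 to 0.303) in Lgr5-high cystine and 0.352 CPM (0.246 to 0.487) in Lgr5-high control libraries, 33 of whose 36 counts came from replicate 6. In Lgr5-low cells it was 1.09 CPM (0.894 to 1.31) on cystine and 0.618 CPM (0.441 to 0.841) on control diet. Reads of Fut2 thus came from more libraries in Lgr5-low cystine than in any other group. The largest contrast was Lgr5-high over Lgr5-low on cystine, and in a fit without a filter on low counts it did not pass (edgeR adjusted p = 0.241).

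Lcn2, a siderophore-binding lipocalin with a TTCNNNNGAA match in its promoter, lies on chromosome 2 (32384633 to 32388252, minus strand). It had 58 counts in 16 libraries, of which 3 were in Lgr5-high cystine, 6 in Lgr5-high control, 5 in Lgr5-low cystine and 2 in Lgr5-low control. The pooled level was 0.0927 CPM (95% exact Poisson interval 0.0253 to 0.237) in Lgr5-high cystine and 0.234 CPM (0.150 to 0.349) in Lgr5-high control libraries. In Lgr5-low cells it was 0.108 CPM (0.0538 to 0.193) on cystine and 0.293 CPM (0.177 to 0.458) on control diet, where replicate 6 gave 17 of 19 counts. Il22ra1, Socs3, Fut2 and Lcn2 were also read in that fit without a filter, over 24107 genes, and 0 of them passed in any contrast, with 1 value of p under 0.05, that of Fut2.

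Tifa, an adaptor that links the sensing of a bacterial sugar by ALPK1 to TRAF proteins and NF-kappaB, lies on chromosome 3 (127789805 to 127832164, plus strand). It was the only tested member that differed past the threshold of edgeR in any contrast. It ranged from 28.2 to 62.0 CPM with a median of 39.0 in Lgr5-high cystine libraries, against 13.2 to 33.1 CPM with a median of 17.5 in Lgr5-low cystine libraries. On the control diet it ranged from 18.2 to 48.9 CPM with a median of 30.8 in Lgr5-high, against 7.93 to 28.3 CPM with a median of 19.9 in Lgr5-low libraries. Levels were higher in Lgr5-high cells on both diets, with some overlap of the libraries on each. In the order of means, Lgr5-high cystine, Lgr5-high control, Lgr5-low cystine, Lgr5-low control, the step between Lgr5-high control and Lgr5-low cystine was the only one larger than the SD of both neighbours. On cystine the log2 fold change was 1.06 ± 0.27 (SE, 95% interval 0.50 to 1.61), a fold of 2.08 (1.41 to 3.06), and it passed over all genes (edgeR adjusted p = 0.0267). On control diet it was 0.81 ± 0.27 (0.26 to 1.37) with an edgeR adjusted p = 0.129, which missed the threshold, whereas limma-voom called it (0.93, adjusted p = 0.0338).

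The call for Tifa on cystine was close to the threshold. Left out singly, any of 7 of the 14 libraries ended it: Lgr5-high cystine replicates 1, 2 and 7 (adjusted p 0.0871, 0.0580 and 0.0879) and Lgr5-low cystine replicates 1, 2, 3 and 6 (adjusted p 0.0540, 0.0590, 0.0546 and 0.0575). The log2 fold change stayed between 0.91 and 1.23. It was 0.77 (adjusted p = 0.164) within the female class and 1.78 (adjusted p = 0.161) within the male class, each with fewer libraries. The diet contrasts of Tifa were 0.29 (-0.26 to 0.84) in Lgr5-high and 0.04 (-0.51 to 0.60) in Lgr5-low cells, and the difference between them was 0.25 (-0.53 to 1.02), so that the population difference was not shown to depend on diet. Fewer cells of a type and less RNA per cell cannot be told apart in such bulk samples. Beside Tifa, the 10 stem cell markers summed to 4021 to 7706 CPM in Lgr5-high cystine and 1058 to 2420 CPM in Lgr5-low cystine libraries, and 6 of them were higher. Goblet cell markers summed to 11035 to 19671 CPM in Lgr5-high cystine and 17362 to 48109 CPM in Lgr5-low cystine libraries, and 6 of them were lower. Enteroendocrine markers summed to 87.1 to 240 CPM in Lgr5-high cystine and 378 to 713 CPM in Lgr5-low cystine libraries, and 5 of 10 were lower (median log2 fold change -1.54). Of 9 tested tuft cell markers 2 were lower (median -1.01), and of 12 enterocyte markers 1 was lower (median -0.98). Among hepatocyte markers 1 of 10 was higher, among tested B and plasma cell markers 1 of 3 was lower, and 0 of 9 Paneth cell markers passed. Of all tested genes 2.64% were called in this contrast, and 1.1% of all tested genes were called higher in Lgr5-high cells. The part of these lists in the difference of Tifa was not tested. Of 12 macrophage and Kupffer cell markers 9 were higher in Lgr5-high cystine than in Lgr5-low cystine libraries (median 2.49).

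Tests over the 5 measured members can be set beside those over all 12495 genes. The diet called 0 of 5 members in Lgr5-high cells, where 0.168% of all tested genes were called, and 0 of 5 in Lgr5-low cells, where 0% were. An unadjusted p under 0.05 was found for 0 of 5 members in either population, beside 535 of the 12495 genes in Lgr5-high and 371 in Lgr5-low cells, and DESeq2 and limma-voom called 0 members as well. The difference of the diet effects called 0 of 5 members, at 0% of all genes, and 0 members had an unadjusted p under 0.05, beside 415 of all genes. DESeq2 and limma-voom called 0 members there too. Lgr5-high against Lgr5-low called 0 of 5 on the control diet with edgeR, where 1.8% of all genes were called. There, Il10rb and Tifa had an unadjusted p under 0.05, as did 1607 of all genes, DESeq2 called 0 and limma-voom 1, Tifa. On cystine it called 1 of 5, Tifa, where 2.64% of all genes were called and 1.1% were called higher, as Tifa was. Stat3 and Tifa had an unadjusted p under 0.05 there, as did 1940 of all genes. The libraries of the compared groups overlapped for 5 of 5 members in each comparison, and they were apart for 0.216% of all genes for the diet in Lgr5-high cells, 0.064% in Lgr5-low cells, and 1.3% and 0.96% between populations on cystine and on control diet.

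**Figure D3:**
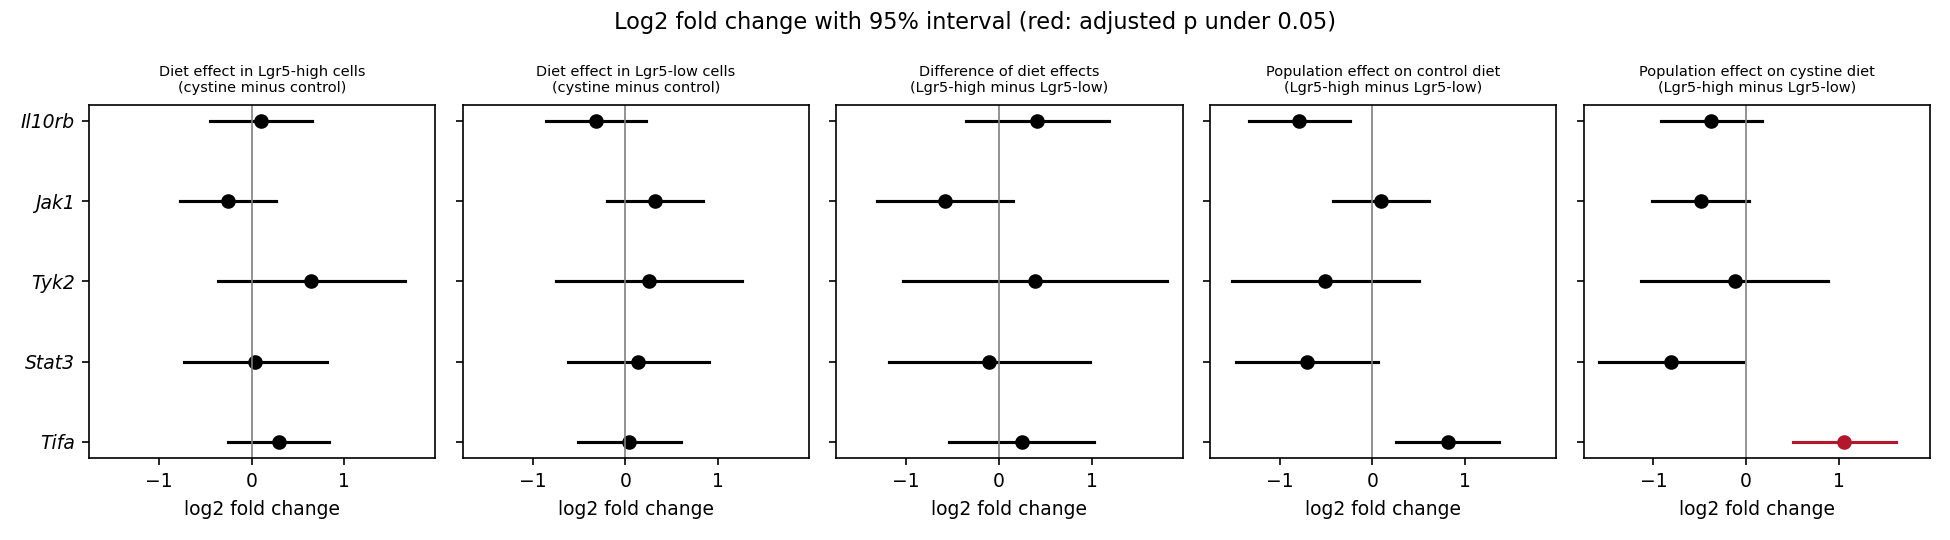
Log2 fold change (horizontal) of the 5 tested members with 95% interval in the 5 contrasts, in red where the edgeR adjusted p was under 0.05. Only Tifa in Lgr5-high against Lgr5-low cells on cystine (1.06, interval 0.50 to 1.61) is red, and every diet interval spans 0.

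The precision of the diet contrasts followed the spread between libraries. Intervals of the diet contrasts were narrowest for Jak1 and Il10rb, from -0.78 to 0.26 and from -0.44 to 0.65 in Lgr5-high cells, and widest for Tyk2. The biological coefficient of variation was 0.34 for Jak1, 0.355 for Il10rb, 0.363 for Tifa, 0.489 for Stat3 and 0.585 for Tyk2, against a common value of 0.629 over all genes. All 5 measured members thus lay below that common value, which covers genes of every tested level and was not matched to the level of the members.

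Per kilobase of exon, Tifa averaged 12.9 CPM in Lgr5-high cystine, 10.5 in Lgr5-high control, 6.19 in Lgr5-low cystine and 6.03 in Lgr5-low control libraries. Jak1 followed Il10rb with 2.91, 3.48, 4.08 and 3.26, Stat3 had 1.17, 1.14, 2.05 and 1.87, and Tyk2 had 1.03, 0.648, 1.13 and 0.941. Tifa ranked first in 3 groups and Il10rb in Lgr5-low control. The inhibitor and the targets Fut2 and Lcn2 reached at most 0.204, 0.242 and 0.107 CPM per kilobase in any group.

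The listed partners of Tifa numbered 4, of which 3 were tested and 0 passed in any contrast. Traf2 and Traf6, ubiquitin ligases downstream of receptors, averaged 11.4 and 3.3 CPM. Lgr5-high over Lgr5-low on cystine gave -0.21 ± 0.30 (log2, SE) for Traf2 and -0.34 ± 0.79 for Traf6. The third, Alpk1, named here after its values were seen, gave 1.01 ± 0.79. The intervals of all 3 include 0.

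Epithelial genes known to answer IL-22 or STAT3 were described as a list of 38, of which 29 were tested. With the diet 0 of 29 passed in Lgr5-high cells (median log2 fold change 0.14, against -0.02 over all genes). In Lgr5-low cells 0 of 29 passed as well (median 0.00, against -0.00). An unadjusted edgeR p under 0.05, in either direction, was found for 2 of 29 in Lgr5-high and 5 of 29 in Lgr5-low cells. Over all 12495 genes it was found for 535 and 371. The members highest in CPM, the antimicrobial lectins Reg3b and Reg3g, gave cystine over control values of 1.20 ± 0.69 (log2, SE) and 1.12 ± 0.62 in Lgr5-high cells. In Lgr5-low cells they gave 1.67 ± 0.70 and 1.37 ± 0.63 (edgeR adjusted p = 1.0 for both). Retnlb, a goblet cell peptide named here after its values were seen, had the highest log2 fold change of the list in Lgr5-low cells. The value was 6.25 ± 1.77 (SE), for a gene with 262 counts in 10 of the libraries. Retnlb ranged up to 20.7 CPM with a median of 1.73 in Lgr5-low cystine libraries. In Lgr5-low control libraries it ranged up to 0.592 CPM with a median of 0, and the diet contrast did not pass (edgeR adjusted p = 1.0). Between populations a few targets passed. On the control diet 2 were higher in Lgr5-high cells, Hk2, a hexokinase (0.86, edgeR adjusted p = 0.0203), and Ifitm3, an antiviral membrane protein (1.16, adjusted p = 0.0305). On the same diet 1 was lower, Dmbt1, a scavenger receptor of the mucosa (-1.17, adjusted p = 0.00185). On cystine Ifitm3 was higher (1.40, edgeR adjusted p = 0.00614) and Dmbt1 lower (-1.12, adjusted p = 0.00220). The other 27 tested targets on cystine and 26 on control diet did not pass, where 2.64% and 1.8% of all genes were called. The medians of the list in the population contrasts were 0.07 on cystine and -0.24 on control diet, beside -0.04 and -0.01 over all genes.

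Macrophage and Kupffer cell markers differed with the diet in Lgr5-high cells in the fit of all 28 libraries and stand beside the diet contrasts here. Of 12 markers 7 were higher with cystine in Lgr5-high cells (median 2.84), and 0 passed in Lgr5-low cells (median 0.99). Libraries under 5 M counts numbered 3 in Lgr5-high cystine and 1 in Lgr5-high control. Without libraries under 5 M counts, 0 of 13855 genes were called for the diet in Lgr5-high cells, with fewer libraries in the fit. Their sum ranged from 21.7 to 597 CPM in Lgr5-high cystine and from 24.6 to 54.4 CPM in Lgr5-high control libraries, and from 30.6 to 125 CPM in Lgr5-low cystine and from 9.01 to 72.9 CPM in Lgr5-low control libraries. None of the 12 was at 0 throughout a group. Lgr5-high cystine replicates 1 to 7 had totals of 14.9, 3.39, 3.47, 9.12, 8.92, 2.75 and 5.32 M counts. In the same order, 8 of the markers summed to 6.18, 257, 401, 109, 136, 357 and 221 CPM. Tifa stood at 62.0, 42.3, 28.2, 39.0, 31.2, 29.1 and 57.1 CPM in the same libraries. This group had the highest median sum of macrophage markers, 347 CPM, and also the highest mean of Tifa. With a term for the macrophage markers in the fit, the difference of Tifa between populations on cystine was 1.24 (edgeR adjusted p = 0.0252).

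**Figure D4:**
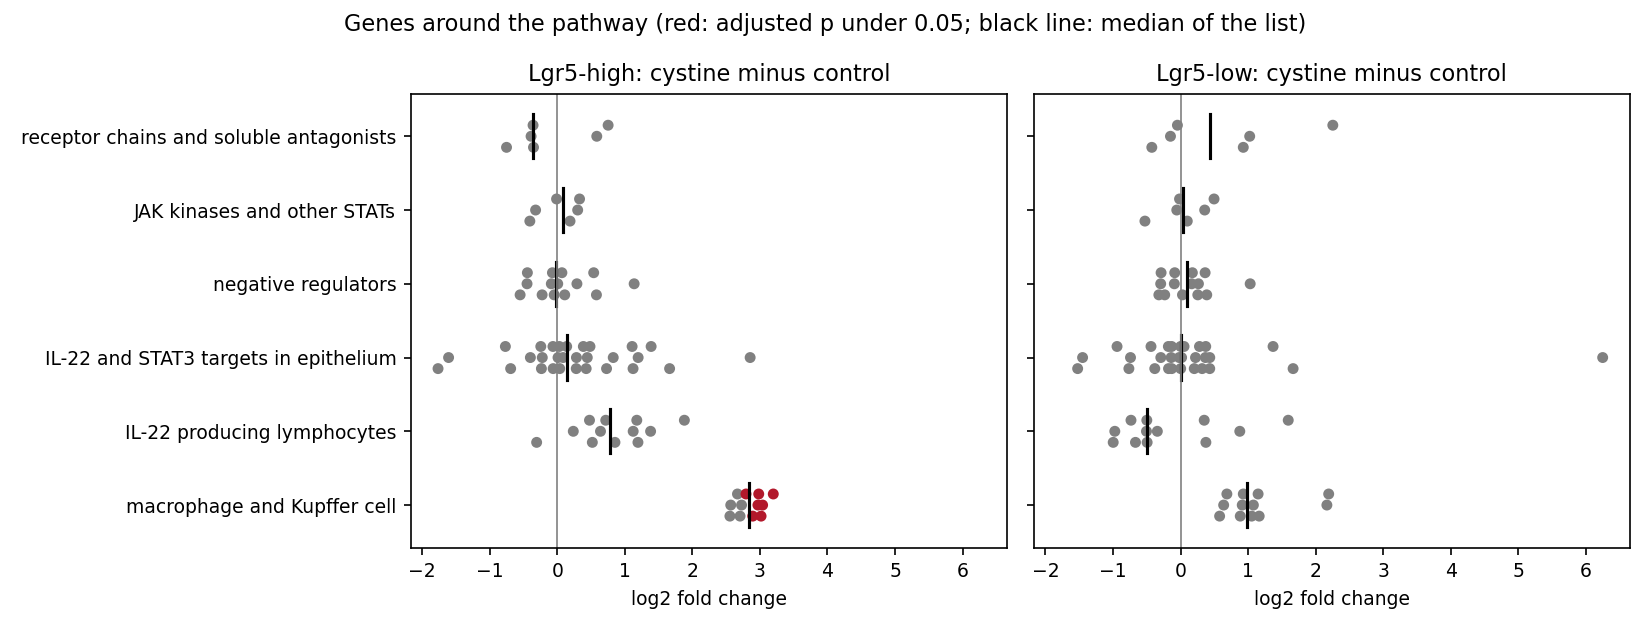
Log2 fold change of cystine over control (horizontal) for the tested genes of 6 lists (points, red where the edgeR adjusted p was under 0.05, black line for the median), in Lgr5-high cells on the left and Lgr5-low cells on the right. Red points appear for the macrophage list in Lgr5-high cells (7 of 12), and 0 of the 29 tested IL-22 and STAT3 targets are red in either panel. In a fit without libraries under 5 M counts, 0 genes were called for the diet in Lgr5-high cells.

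The genes most like each member of at least 10 CPM were ranked by Pearson r of log2 CPM over the 28 libraries, which share depth and group differences. For Il10rb they were Pnp2 (0.78), Ypel5 (0.73) and Ndfip1 (0.72). Those nearest to Jak1 were Cyb561d1 (0.74), Tbc1d1 (0.73) and Sf1 (0.70). Stat3 was closest to Tstd3 (0.83), P4hb (0.82) and Fam3b (0.81), and Tifa to Gm830 (0.78), Zfp472 (0.73) and Gm16754 (0.73). Among the tested members themselves r ran only from -0.36, for Il10rb and Tifa, to 0.33, for Jak1 and Stat3, so that no member had another among its nearest genes.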

How the data were processed

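The deposited table, 1 in number, holds estimated counts by gene, which the authors gave in whole numbers. They were made with Salmon 1.3.0 and genome build mm10, per the submitters' processing notes. The transcript annotation is not given in the sources used here. Of the 54354 gene identifiers, 51485 (94.7%) matched GENCODE M21 (GRCm38, the same assembly), which supplied positions and exon lengths. Genes without a symbol, 0.00328% to 0.0111% of counts, stayed in the fit. Salmon divides reads among transcripts by a model. Library totals of 2.75 to 21.5 M (mega) limit the low genes, and replicates differed by more than sampling noise (chi-square per gene 15.2 to 249 over 84 pairs).

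All genes were fitted together with the quasi-likelihood test of edgeR 4.0.16 (robust, TMM factors, filterByExpr, R 4.3.3), with a mean per group over 28 libraries. The filter left 12495 genes. Two-sided p-values were adjusted by Benjamini-Hochberg over all of them, with a threshold of 0.05, for 5 contrasts: the diet effect in each population, the difference of these effects, and the population effect on each diet. An adjusted p is from edgeR unless another tool is named. Alternatives were DESeq2 1.42.0, limma-voom (limma 3.58.1), RLE factors, other filters, only the compared groups, terms for sex class (female where Xist exceeded 50 CPM) and for 8 macrophage genes, replicate blocks, leaving out libraries under 5 M counts, and each library left out in turn. Fits within a sex class were added after seeing the data. The script was tested on simulated data. Members and lists were chosen with earlier results of these data known. The 10 members are all named. Of each list, up to 3 genes past the threshold are named by lowest p, or else the 2 of highest mean CPM, and for members of at least 10 CPM the 3 genes of highest r (log2 CPM, prior count 2). Results for a withheld item are left out.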

Additional observations from a re-analysis of the deposited data

Results flagged for a closer look

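In groups of 7, a library was picked out by its gap to the nearest library, as a share of the group's range. The share had to exceed Dixon's 95% limit, which chance does in about 1 in 20 groups of normally distributed values. That rate does not hold for low counts with many zeros. A library was picked out in 10 of 36 sets of gene and group. Of these, 9 concern genes too low to test, where a single library with a few counts is enough. The exception was Tyk2 in Lgr5-low cystine replicate 2, at 15.97 CPM, with the next library at 9.19 CPM. Il22ra1 stood out in Lgr5-high cystine replicate 1 (0.1565 CPM, 2 counts), Lgr5-high control replicate 6 (0.5961 CPM, 12 counts) and Lgr5-low control replicate 3 (1.212 CPM, 8 counts). Socs3 stood out in Lgr5-high cystine replicate 6 (2.211 CPM, 6 counts), the shallowest library. Fut2 stood out in Lgr5-high cystine replicate 4 (0.7475 CPM, 6 counts), Lgr5-high control replicate 6 (1.639 CPM, 33 counts) and Lgr5-low cystine replicate 2 (4.689 CPM, 32 counts). Lcn2 stood out in Lgr5-low cystine replicate 1 (0.8617 CPM, 3 counts) and Lgr5-low control replicate 6 (1.324 CPM, 17 counts). Lgr5-high control replicate 6 was thus the high library for both Il22ra1 and Fut2, and Lgr5-low cystine replicate 2 for both Tyk2 and Fut2.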

How the results depend on the processing

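The counts of members called stayed at 0 for the diet in each population and for the difference of diet effects under every setting run. Between populations on control diet 1 was called with limma-voom and 1 with a replicate block of 14 pairs of diet and number (Tifa, 0.86, adjusted p = 0.0217), and the adjusted p of Tifa ran from 0.0217 to 0.608 over the alternatives. On cystine 0 were called within the female and 0 within the male class, where fewer libraries enter, and 0 to 1 with single libraries left out. Tifa otherwise stayed called there, with DESeq2 (1.10, adjusted p = 0.00655), limma-voom (adjusted p = 0.00711), no low-count filter (adjusted p = 0.0471), the sex term (adjusted p = 0.0127), without libraries under 5 M counts (1.19, adjusted p = 0.0421) and under blocks of 7 numbers or 14 pairs (adjusted p = 0.00829 and 0.00523).

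Log2 fold changes changed sign in these cases, none of them called, and the cause was not tested. In the diet contrast of Lgr5-high cells Il10rb was -0.17 with limma-voom, -0.17 with the macrophage term and -0.31 without libraries under 5 M counts. Stat3 there was -0.0021 with limma-voom, -0.14 with the sex term, -0.40 with the macrophage term and -0.87 within the male class. In Lgr5-low cells the diet contrast was -0.034 with the macrophage term for Stat3, within the female class -0.08 for Jak1, -0.050 for Stat3 and -0.24 for Tyk2, and within the male class -0.19 for Tifa. The difference of diet effects was 0.31 for Stat3 and -0.057 for Tifa within the female class, and -0.46 for Tyk2 without libraries under 5 M counts. Between populations on control diet Jak1 was -0.033 with limma-voom, -0.060 without libraries under 5 M counts and -0.24 within the female class, and Tyk2 was 0.11 without libraries under 5 M counts. On cystine Tyk2 was 0.35 within the female class. With single libraries left out, the sign changed within these ranges: Il10rb -0.047 to 0.19, Stat3 -0.33 to 0.21 (diet, Lgr5-high); Stat3 -0.0075 to 0.39, Tifa -0.14 to 0.17, Tyk2 -0.024 to 0.44 (diet, Lgr5-low); Stat3 -0.47 to 0.078 (difference); Jak1 -0.042 to 0.19 (populations, control); Tyk2 -0.30 to 0.16 (populations, cystine).

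Over all genes, the 21 called with the diet in Lgr5-high cells were 89 with DESeq2, 38 with limma-voom, 37 with only the compared groups, 41 with the sex term, 1 with the macrophage term and 0 without libraries under 5 M counts. All 21 were higher with cystine. Within the female class 40 were called, 32 higher and 8 lower. Within the male class, with 2 cystine and 3 control libraries of Lgr5-high cells, 33 were called, 7 higher and 26 lower. The 225 between populations on control diet were 410 with DESeq2, 781 with limma-voom, 144 without the filter, 127 with only the compared groups, 450 with the sex term, 409 with the block of 14 pairs, 674 within the female and 31 within the male class. The 330 on cystine were 585, 880 and 619 with DESeq2, limma-voom and the sex term, and 108 within the male class. Equal replicate numbers were not taken as pairs, since the labels do not tie them and r between populations was not over 0.1 for every number: it ran from -0.083 to 0.17 on cystine and 0.0733 to 0.239 on control diet. The median r was 0.0761 on cystine and 0.107 on control diet, against -0.00992 and -0.0443 for unequal numbers, 3 and 4 of 7 correlated best with their own number, and equal numbers shared a sex class in both populations, which hints at a link in the data. Depth limits Il22, Il22ra1, Socs3, Fut2 and Lcn2, for which neither presence nor absence of a difference can be stated.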
